A study of Oryza sativa Japonica Group with 41 samples.

Results

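The H3K9ac response of rice seedling leaves to 6 h of submergence was followed in 4 ChIP-seq libraries, out of 41 samples of the series. They are the 2 libraries labelled as submergence and the 2 labelled as control with the H3K9ac antibody, 27 of the samples having a peak list. Acetylation of lysine 9 of histone H3 is a mark of active genes, and in plants it is found mostly around the start of transcribed genes. It is laid down by acetyltransferases and taken off by deacetylases, so its level at a gene can change within hours. Submergence limits the gas exchange of the leaf, and the response of rice to it involves ethylene, gibberellin and a switch to fermentation. Butyrylation (Kbu) and crotonylation (Kcr) are related acyl marks of lysine, and they were profiled in the same treatments with antibodies that recognise the modified lysine on any protein site.

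The submerged plants were wild-type rice of the cultivar DongJin, 12 days old, kept for 6 h under distilled water and collected at ZT12, a time counted in hours from the start of light. The control plants were untreated DongJin seedlings of the same age, collected at the same time. Both groups were grown on medium without hormones in long days, and leaves alone were taken. An alternative fit also used H3K9ac libraries of seedlings of the same age that were starved by continuous darkness. Each library is chromatin of leaves in bulk, so more cells carrying the mark and more mark per cell cannot be told apart. The labels do not say whether replicates came from separate plantings, and p values then measure the spread between these libraries only. The tissue label could not be checked against marker genes, because no gene annotation of the assembly of these files was used.

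The peak lists of the 4 libraries were merged where peaks overlapped by at least 1 bp, which gave 25043 regions, against 35127 regions for Kbu and 36496 for Kcr in the same design. The lists held 22401 and 23424 peaks in submergence, against 22390 and 22522 in control. They were made from 8885442 and 11650150 tags in submergence, against 10581295 and 11985500 in control, a tag being 1 aligned read that was kept for peak calling. Peaks held 42.5% and 42.7% of the tags in submergence, against 44.3% and 44.4% in control. A level is given below in RPM, the tags of a region divided by the tags used in its library and scaled to 1000000. Over all 4 libraries, tags in a tested region ranged between 33 and 3670, and neither pair of replicates agreed within sampling noise, with a chi-square per degree of freedom of 1.20 for submergence and 1.30 for control.

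A peak in all 4 libraries was present in 20132 regions, or 80.4% of the total, and these could be tested. Another 890 regions had a peak in both submergence libraries and in neither control library, and are called gained. The reverse pattern, a peak in both control libraries and in neither submergence library, was found in 676 regions, called lost. The remaining regions were mixed, with 1663 having a peak in 1 library only, 335 in 1 library of each group and 1347 in 3 libraries.

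Of the tested regions, 2867 rose (14.2%) and 3624 fell (18%) after submergence, 32.2% in all, by the quasi-likelihood test of edgeR at a Benjamini-Hochberg adjusted p of 0.05. At an unadjusted p of 0.05, 8529 regions passed. Each called region moved in the same direction in both pairs of same-numbered libraries. The calls came from these same libraries, so this describes the calls and adds no separate support. Most changes were small. The median log2 fold change was 0.43 over the risen regions and -0.45 over the fallen ones, and only 141 risen and 360 fallen regions passed a fitted 2-fold change. A change of over 1.5-fold in both pairs was seen in 448 regions upward and 939 downward, 2.23% and 4.66% of those tested. By the same rule 228 regions were higher and 1460 lower with aligned reads as library sizes, and 625 and 761 with summed tags. Of the 448 and 939 regions, all but 1 were also called by edgeR, leaving 448 strongly risen and 938 strongly fallen regions. The number of calls depended on the method. DESeq2 called 359 regions higher and 960 lower (6.55% in all), all of them among the edgeR calls. Without submergence replicate 2, edgeR called 1644 regions higher and 2632 lower. With aligned reads as library sizes edgeR called 38 higher and 230 lower, and the median of all tested regions moved to -0.14 on the log2 scale, against 0.0079 with TMM. The balance of directions also moved with the scale: 44.2% of the calls were upward with TMM, 58.0% with summed tags as library sizes and 56.2% when the called length entered as an offset.

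The difference between the groups was larger than that between replicates. Over tested regions, the SD of the log2 ratio of submergence to control was 0.40 in pair 1 and 0.39 in pair 2. The SD of the ratio between replicates was 0.17 within submergence and 0.17 within control. The ratios of the 2 pairs had a Pearson r of 0.82 and a Spearman rho of 0.77 across the 20132 regions, which is a description, since regions of 1 library share its depth and base composition.

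The 10 regions that rose most were spread over 6 chromosomes. All of them were narrow peaks in control that became wider after submergence. Their called width lay between 1552 and 6744 bp in submergence, against 843 to 1612 bp in control, and without overlap between the groups in any of them. The largest rise was at chr1:2174513-2179611, in MSU7.0 coordinates as everywhere below. This region held 427 and 553 tags in submergence, against 121 and 119 in control, a log2 fold change of 2.18 ± 0.08 (SE, edgeR adjusted p = 2.85e-06). Its peak covered 5077 and 4985 bp in submergence and 1376 and 1496 bp in control. Nearly all of the added width lay on 1 side, a mean of 3461 bp at the lower coordinate against 158.5 bp at the higher. Per kb of called peak, the level was 9.47 and 9.52 RPM in submergence, against 8.31 and 6.64 in control, so the rise per kb was far smaller than that of the tags (0.38, adjusted p = 0.0330). Its fold enrichment over the background of the same library was low, 3.31 and 3.27 in submergence and 3.78 and 3.35 in control. The library medians over all peaks were 7.26 and 7.00 in submergence and 6.97 and 6.87 in control.

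Next came chr2:29429464-29432520, with 230 and 279 tags in submergence and 69 and 60 in control, a log2 fold change of 2.13 ± 0.12. At chr7:23202571-23205722 there were 317 and 435 tags in submergence, against 95 and 97 in control, a change of 2.12 ± 0.08. Both regions spanned 2994 to 3152 bp in submergence, against 938 to 1250 bp in control, and in both the groups are well apart. The region chr6:9870546-9872854 differed from these in density. It held 362 and 412 tags in submergence, against 108 and 105 in control (2.01 ± 0.10). Its level per kb of called peak was 17.6 and 15.9 RPM in submergence, against 6.33 and 6.34 in control, and the log2 change per kb of 1.41 is the largest rise of any region by that measure. At chr6:12604410-12606108 there were 152 and 204 tags in submergence, against 49 and 59 in control, and the density also went up there, with 11.02 and 10.59 RPM per kb in submergence, against 5.17 and 5.51 in control.

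The other 5 of these regions were chr5:4301141-4306019, chr6:30986304-30988510, chr2:28174514-28181257, chr8:9241868-9247760 and chr7:19251144-19255020, with log2 changes between 1.88 and 1.99. The submergence replicates were far apart in 3 of them. At chr5:4301141-4306019 there were 201 and 428 tags in submergence, against 85 and 90 in control, and at chr7:19251144-19255020 there were 138 and 318 in submergence, against 68 and 69 in control. At chr8:9241868-9247760 they held 131 and 420 tags, against 63 and 101 in control, with peaks of 2466 and 5621 bp in submergence and 979 and 1223 bp in control. Its edgeR adjusted p was 0.0112, and DESeq2 did not call it (adjusted p = 0.0864). Density turned the sign at chr2:28174514-28181257, where 533 and 623 tags in submergence stood against 153 and 182 in control. Its peak covered 6744 and 5868 bp in submergence, against 1091 and 1443 bp in control, and the level per kb was 8.89 and 9.11 RPM in submergence, against 13.3 and 10.5 in control.

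The 10 regions that fell most showed the mirror image, broad in control and narrow after submergence. Their called width lay between 845 and 1653 bp in submergence, against 2796 to 6259 bp in control. They held between 50 and 135 tags in submergence, against 351 to 1020 in control, and all 10 were narrower in both submergence libraries than in both controls. The largest fall was at chr2:26769431-26775797, with 79 and 95 tags in submergence and 665 and 705 in control, a log2 fold change of -2.82 ± 0.08 (SE, edgeR adjusted p = 1.40e-06). Its peak covered 1306 and 1213 bp in submergence, against 6259 and 6240 bp in control. The level per kb was 6.81 and 6.72 RPM in submergence, against 10.0 and 9.43 in control. Its peaks were weak, with a fold enrichment of 3.88 and 3.94 in submergence and 3.41 and 3.53 in control. The submergence peaks scored 50.03 and 58.45 (-10 log10 of the p of the peak), where 50 is the lowest score kept.

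At chr1:11683634-11689497, 113 and 135 tags in submergence stood against 900 and 1020 in control, the highest control counts of the 10 (-2.80 ± 0.07). At chr4:27539469-27545069 there were 74 and 87 tags in submergence, against 548 and 615 in control (-2.70 ± 0.08). In both, the edge at the higher coordinate moved far inward, by a mean of -4230 bp in the first and -4096.5 bp in the second, while the other edge moved by -115.5 and -174.5 bp. A pair of the 10 are close neighbours on the same chromosome. At chr7:26059849-26063350 there were 57 and 50 tags in submergence, against 351 and 418 in control, and at chr7:26052654-26056124 there were 75 and 52 in submergence, against 356 and 421 in control. Both had few tags at ZT0 and many at ZT6 and ZT12 in leaves of 30-day-old plants. The first held no peak at ZT0, 1605 and 2804 tags at ZT6, 2399 and 2853 at ZT12 and 564 and 207 at ZT18, and the second held 48 and 234, 1532 and 2408, 1811 and 2190, and 771 and 331 at the same times. The other 5 were chr11:3502051-3508028, chr5:27072783-27078788, chr2:28986207-28990694, chr1:32712756-32716192 and chr5:5630858-5634732, with log2 changes between -2.65 and -2.51. With 1 library left out in turn, the log2 change of the region that fell most lay between -2.87 and -2.77. That of the region that rose most lay between 2.08 and 2.28. Both were chosen for their change in these same libraries, so these values are a description. Per kb of called peak, 9 of the 10 still fell in edgeR, and chr11:3502051-3508028 did not pass (-0.26, adjusted p = 0.138).

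**Figure D1:**
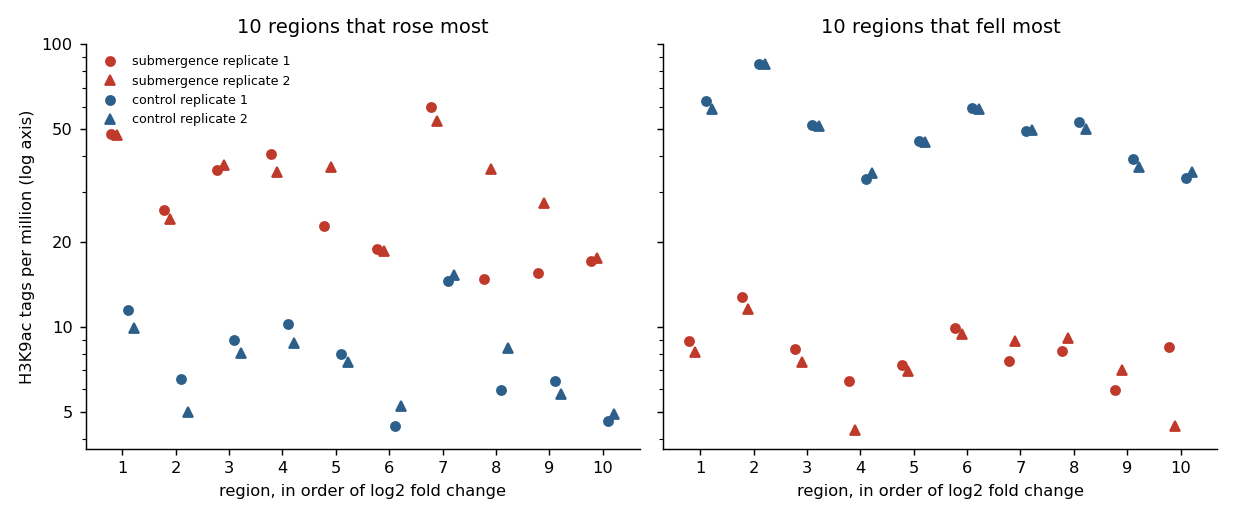
H3K9ac level of the 10 regions that rose most (left panel) and the 10 that fell most (right panel), in RPM on a log axis, with 1 point per library, submergence in red left of control in blue. The 2 groups do not overlap in any of the 20 regions, which were chosen for large changes in these same libraries. The submergence replicates of risen regions 5, 8 and 9 stand far apart.

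Among all risen regions, the one with the highest control level was chr11:12276515-12282562. It held 2999 and 3670 tags in submergence, against 3010 and 3421 in control, a small change of 0.21 (edgeR adjusted p = 0.00417) that DESeq2 did not call (adjusted p = 0.622). The input library, chromatin without antibody, had a peak with 3721 tags in the same region. Input peaks overlapped 141 of the 20132 tested regions, 9 of the gained and 6 of the lost. The fallen region with the highest control level was chr9:18755618-18763211, with 462 and 1295 tags in submergence and 2085 and 2287 in control (-1.21, adjusted p = 0.0108). Its submergence replicates differed widely, with peaks of 3231 and 7337 bp, and DESeq2 did not call it (adjusted p = 0.188). The widest control peak of the risen regions was at chr2:13697949-13706255, with 1362 and 1855 tags in submergence and 1436 and 1641 in control (0.21, adjusted p = 0.00846), and DESeq2 did not call it (adjusted p = 0.639). The widest of the fallen regions was chr1:34937307-34948629, with 791 and 685 tags in submergence and 1531 and 1655 in control (-0.93, adjusted p = 0.00243). It spanned 6659 and 3718 bp in submergence, against 10919 and 10162 bp in control, and its change per kb did not pass (0.13, adjusted p = 0.342).

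The regions nearest to the threshold had small changes. The last risen region called, chr11:2831270-2833196, held 150 and 207 tags in submergence and 161 and 169 in control (adjusted p = 0.0499967). The first one outside, chr9:5107844-5109276, held 102 and 130 in submergence and 90 and 114 in control (adjusted p = 0.0500065). Downward, chr10:18401655-18403600 was the last inside, with 171 and 204 tags in submergence and 227 and 264 in control, and chr6:2408122-2409793 the first outside, with 168 and 215 in submergence and 261 and 253 in control.

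The starting level separated the regions that rose from those that fell. In control, the median level was 13.3 RPM over the risen regions, 26.5 over the fallen ones and 17.3 over those not called. In submergence these medians were 18.2 over the risen regions, 18.3 over the fallen ones and 17.4 over those not called. The classes therefore differed by about 2-fold in control and had close medians after submergence. Since the classes were formed from these tags, the values describe the classes and no test was made.

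By deciles of the control level, the share of risen regions went down at each step, with 31.7% in the lowest decile and 4.42% in the highest. The share of fallen regions went up at each step, with 1.49% in the lowest decile and 45.9% in the highest. These shares leave out regions that lost their peak in a submergence library. Of the regions with a peak in both controls, 14.7% in the lowest decile of control level had none in either submergence library. In the highest decile 0.51% had none. The part of this in the slope was not tested. The median log2 ratio of submergence to control was 0.27 in pair 1 and 0.25 in pair 2 in the lowest decile, and -0.17 and -0.19 in the highest. The ratios between replicates stayed close to 0 over the deciles, between 0.014 and 0.034 within submergence and between -0.011 and 0.0098 within control. Ordered by the level after submergence instead, neither class showed such a slope. The share of risen regions was then 7.75% in the lowest decile, and between 13.5% and 16.2% in the other deciles, 15.3% in the highest. The share of fallen regions was 21.3% in the lowest decile and 22.2% in the highest, with 15.4% to 21.3% between them.

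**Figure D2:**
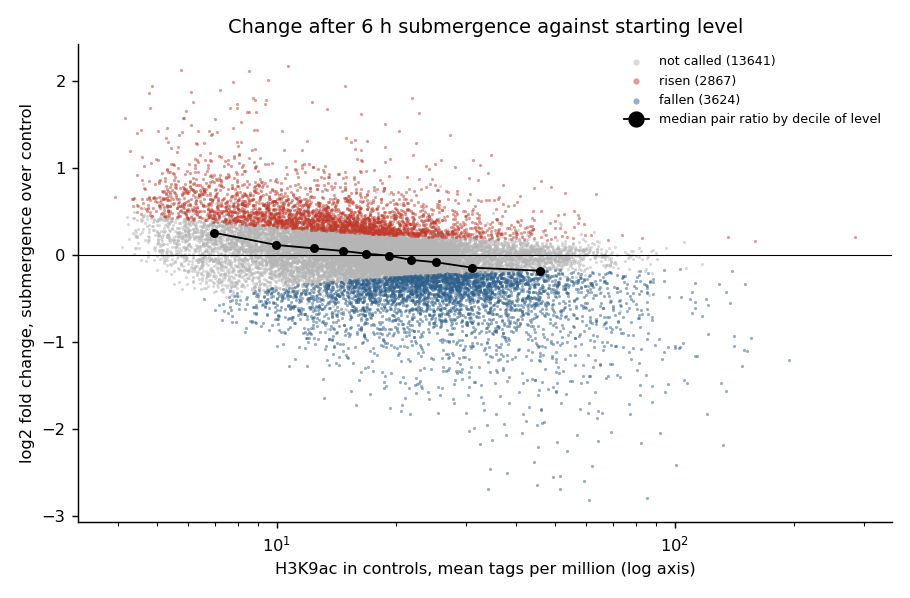
Log2 fold change of each of the 20132 tested regions (submergence over control, edgeR) against its mean control level in RPM on a log axis, with risen regions in red, fallen in blue and those not called in grey. The black line joins the medians of the pair ratios by decile of the level, mean of both pairs, and passes 0 near the middle of the levels.

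The same order was seen when level and class came from different libraries. Regions over 1.5-fold higher in pair 2 alone had a median level of 8.98 RPM in control replicate 1, and those over 1.5-fold lower had 25.7, against 17.9 for all tested regions. With classes from pair 1 and levels from control replicate 2, the medians were 9.51 for the higher regions, 26.1 for the lower ones and 17.9 for all. Libraries that the classes did not use gave the same order. In control Kbu the medians were 16.0 and 17.3 RPM in risen regions and 22.3 and 24.3 in fallen ones, against 18.6 and 20.4 over all tested regions with a peak. In H3K9ac of leaves of 30-day-old plants at ZT12 they were 18.98 and 18.84 in risen and 26.7 and 26.6 in fallen regions, against 22.2 and 21.9 over all. The fold enrichment of the peaks did not separate the classes in this way, with control medians of 6.62 and 6.58 in risen, 6.71 and 6.63 in fallen and 7.80 and 7.66 in regions not called.

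The range of H3K9ac levels within a library was narrower after submergence. The SD of log2 levels over the tested regions was 0.74 and 0.73 in submergence, against 0.81 and 0.81 in control. The highest decile of regions, ranked within each library, took 22.7% and 22.7% of the tags in submergence, against 24.4% and 24.5% in control. The lowest decile took 3.58% and 3.63% of the tags in submergence, against 3.21% and 3.24% in control. In each of these measures the 2 groups did not overlap, but 2 libraries against 2 cannot give a two-sided exact permutation p below 0.33. A region without a peak in some library was not tested. Of the regions with a peak in both controls, 28.9% of those in the lowest decile of control level lacked a peak in at least 1 submergence library, against 1.21% in the highest decile.

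Width taken alone gave a similar picture. The median called width in control was 1389 bp in risen regions, 1972 bp in fallen ones and 1497 bp in those not called. In submergence it was 1551 bp in risen, 1618 bp in fallen and 1467 bp in regions not called. By deciles of the control width, the share of fallen regions went up at every step to 51.7% in the widest decile, against 2.18% in the narrowest. The share of risen regions was 29.7% in the narrowest decile and between 8.05% and 12.2% from the fourth decile on, with 10.3% in the widest. Level and width go together, so both were split into 3 equal classes. At high level, 43.4% of the 4677 wide regions fell, against 11.2% of the 205 narrow ones. Their median levels were 31.6 and 26.6 RPM, so level was not held equal. Among wide regions, 43.4% fell at high level, against 16.9% of 272 at low level. Width was not held equal there, with medians of 2291 bp at high and 1816 bp at low level. The share of risen regions did not go down steadily with width at a given level. At low level it was 25.4% in narrow, 17.9% in middle and 22.1% in wide regions. At middle level these shares were 13.4%, 10.4% and 15.9%, and at high level 5.37%, 3.23% and 7.87%.

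**Figure D3:**
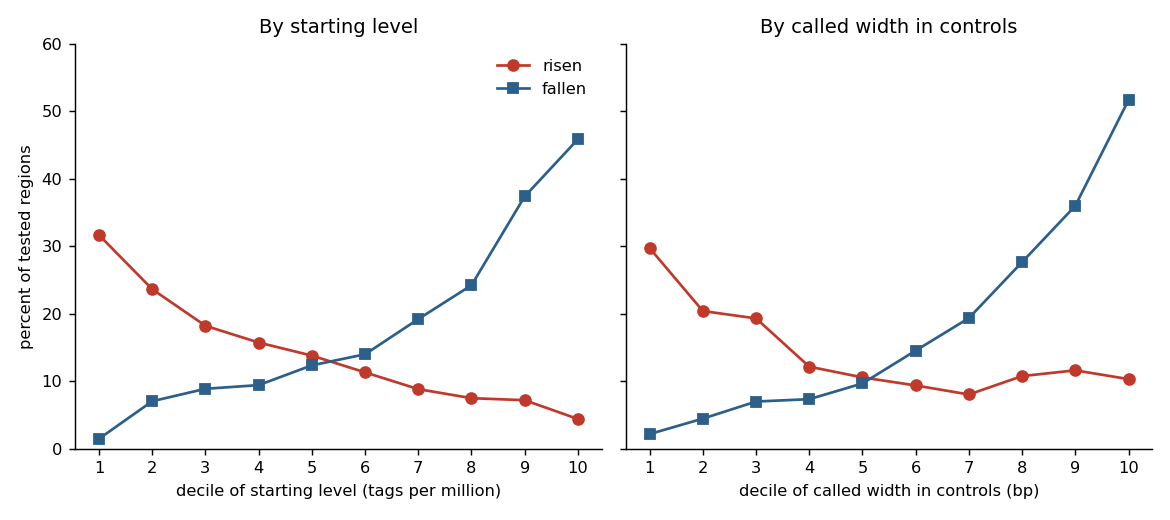
Percent of tested regions that rose (red circles) or fell (blue squares) in each decile of the starting level in RPM (left) and of the called width in controls in bp (right). Fallen regions make up 45.9% of the highest level decile and 51.7% of the widest decile, and risen regions 31.7% of the lowest level decile.

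Most regions that changed also changed in width. Of the risen regions, 2008 were wider in submergence in both pairs, and 169 were narrower in both. Over all tested regions 25.1% were wider in both pairs. Of the fallen regions, 3043 (84.0%) were narrower in both pairs, against 39.6% of all tested, and 62 were wider. Among strongly changed regions these shares were 94.2% for the risen and 98.0% for the fallen. Regions of at least 3000 bp numbered 715 and 774 in submergence, against 962 and 1159 in control. Edge shifts were counted outward only for risen regions and inward only for fallen ones. Where these came to at least 500 bp in sum, at least 80% of the shift was at 1 end in 303 of 392 risen and 698 of 1045 fallen regions. No such share was computed for the other tested regions, so whether this is particular to changed regions was not tested. Between the group means of the summit position, the median distance was 33.5 bp in risen, 43.0 bp in fallen and 28.5 bp in regions not called. Between single replicates it was 35.0, 40.5 and 31.0 bp. Means of 2 libraries vary less than single libraries, so these measures are unlike and do not show whether the summit moved.

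With the called length of each library as an offset, so that tags per kb were compared, edgeR called 1792 regions higher (8.90%) and 1395 lower (6.93%). Of the risen regions 1245 were called in the same direction per kb and 19 in the other, and of the fallen regions 1250 were called in the same direction and 59 in the other. The median log2 change per kb was 0.29 over the risen and -0.23 over the fallen regions, against 0.040 over all tested. A peak that is called wider takes in more tags by construction, and whether the called width follows the level was not tested.

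Gained and lost regions were mostly weak peaks. Gained regions had a median level of 7.54 and 7.30 RPM in the 2 submergence libraries, against 17.8 and 17.5 for tested regions there. Lost regions had 8.03 and 8.51 in the 2 control libraries, against 17.9 and 17.9 for tested regions. The sets are unlike by definition, since tested regions needed a peak in all 4 libraries. Of the regions with a peak in both submergence libraries, 22.9% in the lowest decile of submergence level had none in either control. In the highest decile 1.61% had none. The part of this in the lower levels was not tested. The median width was 1149 bp for gained regions and 1273 bp for lost ones. A score is -10 log10 of the p of the peak, and 50 is the lowest that was kept. Both peaks scored at least 100 in 157 gained regions (17.6%) and in 184 lost ones (27.2%).

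A list without a peak does not say how many tags lay below the peak threshold, so gained and lost describe calls and no fold is given. The 5 gained regions with the most tags were chr1:31406831-31414428, chr4:30937094-30943946, chr7:24346844-24352846, chr5:1661596-1666065 and chr1:8083017-8087373. The first held 1133 and 1390 tags over 7598 and 6659 bp in submergence, with no peak in control. These 5 were broad, between 3211 and 7598 bp, and their fold enrichment of 2.74 to 4.66 lay below the library medians of 7.26 and 7.00. Of these 5, 3 had a peak in both control Kbu libraries and 3 in all 8 libraries of 30-day-old leaves. Replicates of 1 group could disagree there: at chr1:31406831-31414428, control Kbu had no peak in 1 replicate and 1236 tags in the other, and leaves at ZT6 had 2592 tags in 1 and no peak in the other. Peaks were called against a background taken from the same library within 10000 bp, and the part of this in these patterns was not tested.

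The 5 lost regions with the most tags were of the same kind. They were chr2:20072036-20078172, chr1:2201910-2205455, chr3:6499256-6502596, chr2:27017928-27021458 and chr1:2208123-2212070, between 3110 and 6137 bp wide in control with a fold enrichment of 2.79 to 4.93. The first held 625 and 729 tags in control, with no peak in submergence, and it had a peak in only a few of the other libraries. By contrast chr1:2201910-2205455 held 547 and 613 tags of H3K9ac in control with no peak in submergence, but it had 294 and 347 tags in submergence Kbu, against 531 and 537 in control Kbu. This region and chr1:2208123-2212070 lie close together on chromosome 1, near the region that rose most. Regions with at least 200 tags in both libraries of their group numbered 55 among the gained, with a median fold enrichment of 4.25 and width of 2855 bp. They numbered 68 among the lost, with a median fold enrichment of 3.80 and width of 2774 bp. Tested regions with at least 200 tags in all 4 libraries had a fold enrichment of 8.14 in submergence and 7.85 in control.

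Kbu and Kcr peaks were present at many of the gained and lost regions in both conditions. Of the gained regions, 87.0% had a Kbu peak in both submergence libraries and 73.7% in both control libraries. Of the lost regions, 67.9% had a Kbu peak in both submergence libraries and 81.1% in both control libraries. The Kcr shares were 85.2% in submergence and 71.3% in control for gained regions, and 64.3% in submergence and 78.8% in control for lost ones. The tested regions had a Kbu peak in both libraries in 98.7% of cases in submergence and 98.5% in control. In leaves of 30-day-old plants, 18.7% of the gained and 19.2% of the lost regions had a peak in all 8 H3K9ac libraries, against 83.4% of the tested ones, and 34.7% of the gained and 27.1% of the lost had none, against 2.87% of the tested.

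The chromosomes differed in the balance of rise and fall. The share of fallen regions was highest on chromosome 3, with 526 of 2440 tested regions (21.6%), and was between 19.2% and 21.1% on chromosomes 1, 2, 4 and 5. It was lowest on chromosomes 12, with 122 of 1159 (10.5%), and 11, with 136 of 1189 (11.4%). These 2 chromosomes had the highest shares of risen regions, 17.9% on chromosome 12 and 19.6% on chromosome 11, against 11.7% on chromosome 3. On chromosomes 8, 11 and 12 more regions rose than fell by edgeR with TMM, and on the other 9 more fell. Past 1.5-fold in both pairs, chromosome 11 had 40 regions higher and 29 lower. By that rule chromosome 8 had 33 higher and 52 lower, and chromosome 12 had 28 and 29. The median log2 ratio was 0.063 in pair 1 and 0.041 in pair 2 on chromosome 11, and 0.075 and 0.049 on chromosome 12, against -0.031 and -0.062 on chromosome 3. Chromosomes 11 and 12 also had the lowest median control level, 16.6 and 16.2 RPM, against 18.6 on chromosome 3. When 5 classes of control level were weighted alike, chromosome 11 had 18.7% risen and 12.4% fallen, chromosome 12 had 16.5% risen and 12.0% fallen, and chromosome 3 had 12.5% risen and 20.4% fallen. Gained regions outnumbered lost ones most on chromosome 7, with 83 gained and 30 lost, while chromosome 2 had 94 gained and 97 lost. No test was made across chromosomes, since regions of 1 chromosome are not independent.

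**Figure D4:**
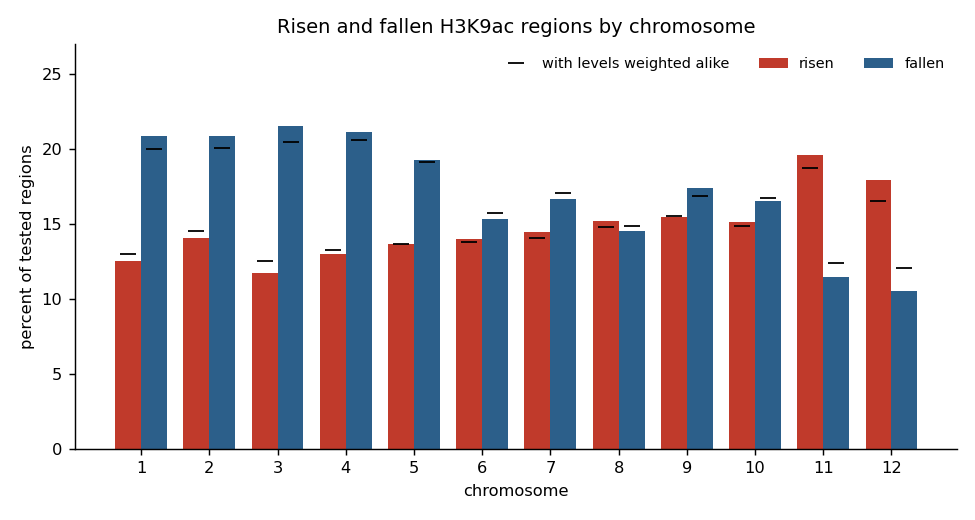
Percent of the tested regions of each chromosome that rose (red) or fell (blue), with black marks for the same shares when 5 classes of control level are weighted alike. Fallen regions reach 21.6% on chromosome 3 and are fewest on chromosomes 11 and 12, the 2 chromosomes where risen regions are most frequent.

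Distance to the chromosome end showed smaller differences between the classes. The median distance to the nearer chromosome end was 6.23 Mb for risen regions, 6.58 Mb for fallen ones and 6.62 Mb for those not called. The upper end was taken as the last base of any called peak in the series. In the decile of regions nearest to an end, with a median of 0.586 Mb, 18.6% rose and 14.0% fell, against 11.7% and 21.7% in the sixth decile. Gained regions lay at a median of 6.20 Mb and lost ones at 6.98 Mb. The number of other regions within 100 kb on either side was also related to the class. Among the most crowded decile of tested regions 12.7% rose and 23.1% fell, and in the least crowded decile 15.7% rose and 9.83% fell.

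Neighbouring regions often moved in the same direction. There were 5061 pairs of tested regions in sequence that lay within 5000 bp of each other. Of the neighbours of fallen regions 38.6% had also fallen, against the 18% of all tested regions, and 7.11% had risen. Of the neighbours of risen regions 25.5% had also risen, against 14.2% of all, and 10.8% had fallen. Both fell in 388 pairs, both rose in 169 and 143 went in opposite directions. Runs were counted over tested regions in sequence, at any distance, with untested regions between them skipped. The longest run of fallen regions had 10 members at chr3:31874617-32080487, over 206 kb, with log2 changes between -1.29 and -0.21. A run of 8 fallen regions lay at chr7:20999101-21122535, with a median change of -0.60 and 676 and 937 tags in sum in submergence, against 1268 and 1352 in control. The longest runs of risen regions had 6 members. One lay at chr11:8460710-8679840, with 1666 and 2222 tags in submergence and 980 and 1198 in control, and the other at chr6:29527635-29591271, with 899 and 1190 tags in submergence and 681 and 757 in control.

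The median changes of Kbu and Kcr had the direction of those of H3K9ac. The groups were formed by the H3K9ac change, which by that choice lies far from 0 in them, and no grouping by Kbu or Kcr was made, so the sizes of the medians are a description and do not compare the marks. All 12 libraries of the 3 marks had a peak in 19573 of the tested regions. Among these the risen regions had a median log2 change of 0.43 for H3K9ac, against 0.19 in Kbu and 0.18 in Kcr. The fallen regions had -0.45 in H3K9ac, -0.15 in Kbu and -0.13 in Kcr. In strongly risen regions H3K9ac had a median of 0.83, Kbu of 0.38 and Kcr of 0.41, and in strongly fallen ones the 3 medians were -0.88, -0.29 and -0.23. The Kbu change had the sign of the H3K9ac change in 83.6% of the risen and 79.6% of the fallen regions, against 67.1% of all regions. Across the regions, the Pearson r of the changes was 0.54 between H3K9ac and Kbu and 0.50 between H3K9ac and Kcr, with Spearman rho of 0.51 and 0.47, as a description.

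Kbu itself rose in 923 of the 19573 regions (4.72%) and fell in 1043 (5.33%), and Kcr rose in 923 (4.72%) and fell in 707 (3.61%). Of the 2741 risen H3K9ac regions among them, Kbu rose in 534 (19.5%) and fell in 12. Of the 3534 fallen ones, Kbu fell in 673 (19.04%) and rose in 22. For Kcr, 513 of the risen regions rose (18.7%) and 7 fell, and 463 of the fallen regions fell (13.1%) and 29 rose. The order by starting level was seen in Kbu and Kcr too, in libraries that did not form the deciles. Only regions with a peak in all 12 libraries have these values. Low regions that lacked a peak in any of them are left out, and the part of this in the order was not tested. In the lowest decile of control H3K9ac, Kbu had a median log2 change of 0.16 and Kcr of 0.18, and in the highest decile Kbu had -0.081 and Kcr -0.099.

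The difference between marks was tested as an interaction of mark and submergence in edgeR. The H3K9ac change differed from that of Kbu in 1079 regions (5.51%) and from that of Kcr in 1244 (6.36%). In 793 of the first and 976 of the second, the H3K9ac change was the lower one. With the tags used for peak calling as library sizes, 417 regions differed from Kbu, 168 of them with the lower H3K9ac change, and 381 from Kcr, 246 of them so.

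**Figure D5:**
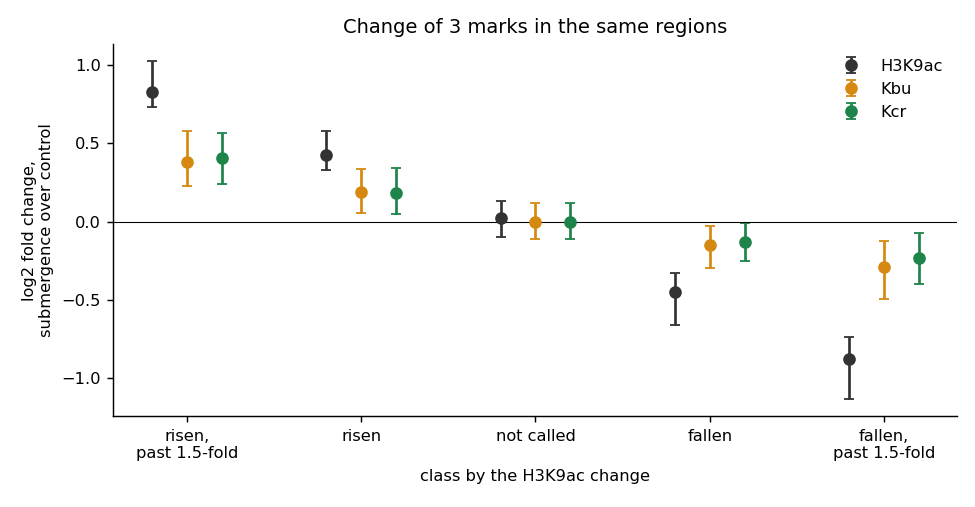
Log2 change of H3K9ac, Kbu and Kcr after submergence in regions grouped by their H3K9ac change, with points at the median and bars over the quartiles of 401, 2741, 13298, 3534 and 887 regions (left to right). In each changed group the medians of Kbu and Kcr lie on the side of H3K9ac, whose own distance from 0 follows from the grouping.

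The regions with the largest H3K9ac changes, chosen for that mark, gave examples. At chr11:3502051-3508028, H3K9ac fell by 2.65 on the log2 scale, with 65 and 81 tags in submergence and 479 and 540 in control. Kbu there held 197 and 173 tags in submergence, against 277 and 219 in control, a change of 0.039 after TMM scaling (edgeR adjusted p = 0.880), and Kcr held 186 and 202 in submergence, against 239 and 241 in control. At chr1:11683634-11689497 all 3 marks fell, with Kbu at 438 and 566 tags in submergence, against 1282 and 1292 in control. At chr5:5630858-5634732 Kbu fell too, with 64 and 98 tags in submergence, against 424 and 366 in control (-1.83). Kcr fell by 0.44 there. Among risen regions chr2:28174514-28181257 stood out for Kcr, which held 790 and 786 tags in submergence, against 205 and 219 in control (2.07), while Kbu did not pass (0.43, edgeR adjusted p = 0.145).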

How the data were processed

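Chromatin of rice leaves was immunoprecipitated and sequenced. Per the labels, the paper's methods and the file headers, the authors ran Trimmomatic on the reads, Bowtie2 2.2.5 for alignment against the MSU7.0 build and SAMtools 0.1.19 for filtering, and called peaks in each library with MACS 1.4.2, without an input library, at a p of 1.00e-05, keeping at most 1 tag per position. The deposited lists give, for each peak, the count of tags, a score (-10 log10 of the p, at least 50) and a fold enrichment over the background of the same library within 10000 bp. These values cover called peaks only.

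Peaks of the 4 libraries overlapping by 1 bp were merged and tag counts summed. Regions with a peak in all 4 were tested with edgeR 4.0.16 (quasi-likelihood, TMM, Benjamini-Hochberg, 0.05), and marks were compared by an interaction term over 12 libraries. A tool check on simulated counts for 20132 regions recovered 100% of 2-fold and 84% of 1.5-fold changes with 9 false calls. Every region was simulated with the common dispersion of the fit, so regions with a larger spread were not covered. The check gives no error rate for the calls in these data. The alternatives were DESeq2 1.42.0, other library sizes, thresholds and called length as an offset. The total of aligned reads came from the study. Named regions are the 10 largest changes in each direction among edgeR calls past 1.5-fold in both pairs, the 5 gained and 5 lost with the most tags, and the highest and widest called region in each direction. Members and rules were chosen with earlier results of these data known. Gene names and gene lists were not used, since no annotation of this build was used. Of the lists from starved seedlings, those of H3K9ac entered an alternative fit, and those of Kbu and Kcr entered no fit. All lists of the series were read for the last base of any peak, taken as the upper chromosome end. Computation used R 4.3.3, Python 3.11.15, pandas 2.3.3 and matplotlib 3.10.9.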

Additional observations from a re-analysis of the deposited data

Results flagged for a closer look

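The H3K9ac change after submergence differed from that of Kbu in 1079 of 19573 regions and from that of Kcr in 1244, by the interaction of mark and submergence in edgeR at an adjusted p of 0.05. Both counts are flagged because the fitted change differed between the libraries of these marks. The H3K9ac change was the lower one in 793 regions against Kbu and in 976 against Kcr. With the tags used for peak calling as library sizes the counts were 417 and 381. Against Kbu the H3K9ac change was then the lower one in 168 regions and the higher one in 249, against 793 and 286 with TMM. The marks come from different libraries, so a difference between antibodies and one between libraries cannot be told apart.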

How the results depend on the processing

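The 6491 regions called by edgeR became 1319 with DESeq2, 268 with aligned reads as library sizes and 3187 with the called length as an offset, and the cause was not tested. The other library sizes, filters and sample choices gave 4974 to 6949 calls. Leaving out 1 library gave between 4276 calls (without submergence replicate 2) and 5300 (without control replicate 1), with 1644 regions higher and 2632 lower in the first of these, against 2867 and 3624 with all 4 libraries, the lone library being assumed to vary like the other group. The 1387 regions past 1.5-fold in both pairs became 234 per kb of called peak, 920 with peaks of a score of at least 100, 369 at 2-fold, and 2125 or 2220 from 1 pair alone, where only 1 ratio had to pass. The 890 gained and 676 lost regions became 157 and 184 when both peaks had to score at least 100 and the other group lacked any peak. Without 1 library there were 1158 to 1637 gained regions (most without submergence replicate 1) and 829 to 1192 lost ones (most without submergence replicate 2; 1056 without control replicate 1), since fewer lists had to match. The counts that differ from Kbu and Kcr became 417 and 381 with the tags used for peak calling as library sizes.

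With the called length as an offset, 3 named regions changed sign, at -0.36 for chr2:28174514-28181257, -0.037 for chr8:9241868-9247760 and 0.13 for chr1:34937307-34948629. Of the 24 named regions, 4 were not called by DESeq2 and 3 not with aligned reads. Only 4 of the 24 could be tested with peaks of a score of at least 100. With at least 100 tags in each library, 8 could be tested. With the called length, edgeR did not call chr11:3502051-3508028 (adjusted p = 0.138), chr11:12276515-12282562 (0.514), chr8:9241868-9247760 (0.884) and chr1:34937307-34948629 (0.342). With all merged regions entered at 0 tags where no peak was called, 3 were not called, chr8:9241868-9247760 (edgeR adjusted p = 0.117), chr9:18755618-18763211 (0.145) and chr1:34937307-34948629 (0.070). The replicate numbers are shared only as numbers: the deviations of same-numbered libraries had a correlation of 0.0814 over 2 pairs. With the replicate block edgeR called 3100 regions higher and 3839 lower, 6939 in all, and 951 and 1158 regions differed from Kbu and Kcr. Peaks below the score limit are not in these lists, so a change in them was not detectable.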
